A study of Homo sapiens with 9 samples.

Results

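The genes described here code for proteins of the lysosomal membrane and for the subunits of the vacuolar ATPase (V-ATPase), the proton pump that acidifies the lysosome. The set was chosen by gene symbol from a written list. The rule used no measured value, but the list was drawn up with earlier results of these data known. It holds 50 of the 56609 symbols in the deposited table: 27 lysosomal membrane proteins, 9 subunits of the membrane-bound V0 sector of the pump, 12 subunits of its cytosolic V1 sector, and the accessory subunits ATP6AP1 and ATP6AP2. RNA was sequenced from MCF10A, an established, non-tumorigenic human breast epithelial cell line, in 9 samples of 3 groups with 3 samples each. The first group was a control, for which no treatment or treatment time is listed. The second was given 10 mM calcium with the calcium ionophore ionomycin for 16 h (high calcium). The label gives ionomycin as 1 mM, repeated here as labelled. The third was given 10 nM transforming growth factor beta 3 for 16 h (TGFb3). All groups were the same line, and ionomycin was given in high calcium only, so calcium and the ionophore cannot be told apart. The labels number the samples of a group but do not say that they were separate cultures, and p-values then reflect the scatter of these samples alone, which could be technical.

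The values are TPM, a length-normalised share of each library, so levels of different genes can be set side by side. The sequencing depth behind them is unknown. Levels are given in TPM, as a mean with its SD where not by sample (n = 3). Differences between groups are differences of mean log2(TPM + 1) with a standard error (SE), and come with an adjusted p, both from limma. A gene was called higher or lower at a Benjamini-Hochberg adjusted p under 0.05 among 13968 symbols that averaged 1 TPM or more. Of the 50 genes, 48 passed this filter. ATP6V0D2 and ATP6V1G2, forms known mainly from osteoclasts and brain, were too low to be tested.

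Lysosomes digest material delivered by endocytosis and autophagy, and their membrane holds heavily glycosylated proteins that line it, carriers that export the products of digestion, and channels for calcium, sodium, potassium and chloride. The V-ATPase hydrolyses ATP in V1 and drives protons through V0, and several of its subunits exist as alternative isoforms, of which one is found in most tissues and others mainly in particular cell types such as the acid-secreting cells of the kidney. Many lysosomal genes carry in their promoter the palindrome CACGTG, or a longer palindrome around it, which MiT/TFE factors such as TFEB are known to bind.

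Promoters of 39 of the 50 genes were found by symbol in RefSeq (build GRCh38.p14), each taken from 250 bases before to 50 bases from the start site on. ATP6V0E1, TMEM55B, ATP6V1E2, ATP6V1A, ATP6V1C1, ATP6V0D2, HGSNAT, ATP6V1H, LAPTM4B, LAMP2 and ATP6V1B2 had no entry. The motifs searched on both strands were CACGTG and TCACGTG, which contains it, and the longer CLEAR palindrome, in which TCACGTG has G before it and AC after it. CACGTG was present in 12 of the 39 genes (30.8%), against 8.77% of the 27305 genes in the table and 7.26% of its 35116 windows. TCACGTG was present in 10 (25.6%, against 4.49% of genes and 3.71% of windows), and the CLEAR palindrome in 2, MCOLN1 and ATP6V1G1 (5.13%, against 0.421% of genes and 0.353% of windows). The windows of 30 bases below, read 5′ to 3′ on the strand of the gene, show the motif as it stands in the promoters of a membrane glycoprotein, the ion channels and carriers, and the pump, with TCACGTG, or any longer palindrome around it, in capitals.
LAMP1, chr13:113297035-113297064, plus strand: accaggccgggTCACGTGggtccagggtca
LAMP1, chr13:113297051-113297080, plus strand: tgggtccagggTCACGTGccgctgcgggtc
LAMP1, chr13:113297068-113297097, plus strand: gccgctgcgggTCACGTGccgctgcgggtc
LAMP1, chr13:113297085-113297114, plus strand: gccgctgcgggTCACGTGtcggcctgcatc
LAMP1, chr13:113297199-113297228, plus strand: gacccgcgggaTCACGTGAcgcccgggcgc
LAMP1, chr13:113297226-113297255, plus strand: cgcggcgcagcTCACGTGAcaagcgctgcc
MCOLN1, chr19:7522571-7522600, plus strand: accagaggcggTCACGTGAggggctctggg
MCOLN1, chr19:7522598-7522627, plus strand: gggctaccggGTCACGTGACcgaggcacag
CLCN7, chr16:1475058-1475087, minus strand: gccgtcgctcaTCACGTGgccccgtcgcgc
CLCN7, chr16:1475038-1475067, minus strand: cccgtcgcgcgTCACGTGgccgccggcgcg
CLN3, chr16:28492058-28492087, minus strand: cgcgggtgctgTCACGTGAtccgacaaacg
SPNS1, chr16:28974714-28974743, plus strand: cgggtggcaggTCACGTGtcgaaggcttgc
MFSD1, chr3:158802027-158802056, plus strand: ctgccggggcgTCACGTGAgctcccggagt
ATP6V0B, chr1:43974891-43974920, plus strand: ccggcgtggggTCACGTGgtaccggcgcat
ATP6V0B, chr1:43974909-43974938, plus strand: gtaccggcgcaTCACGTGggcgagttaggt
ATP6V0D1, chr16:67481199-67481228, minus strand: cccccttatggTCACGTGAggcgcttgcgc
ATP6V0E2, chr7:149872884-149872913, plus strand: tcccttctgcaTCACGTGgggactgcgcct
ATP6V1G1, chr9:114587699-114587728, plus strand: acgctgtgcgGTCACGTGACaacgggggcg
LAMP1 held 6 copies of CACGTG, the most among the promoters shown, and the third and the fourth of its windows share the same bases before the motif. CLN3 held a further TCACGTG, on the other strand within chr16:28492086-28492115, whose window is not printed. Such a match is a description of the sequence and not a measured binding site. The 250 bases before the RefSeq start of ATP6V1C2 and ATP6V1B1, which among the 48 tested genes of the set had the largest difference in high calcium and in TGFb3, held none of the 3 motifs, which says only that these letters are not in this stretch.
ATP6V1C2, chr2:10721380-10721629, plus strand: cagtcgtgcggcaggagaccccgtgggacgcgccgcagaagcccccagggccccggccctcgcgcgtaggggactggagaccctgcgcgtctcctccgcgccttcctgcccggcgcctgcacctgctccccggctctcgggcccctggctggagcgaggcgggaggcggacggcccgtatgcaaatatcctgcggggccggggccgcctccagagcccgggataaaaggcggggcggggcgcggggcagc
ATP6V1B1, chr2:70935650-70935899, plus strand: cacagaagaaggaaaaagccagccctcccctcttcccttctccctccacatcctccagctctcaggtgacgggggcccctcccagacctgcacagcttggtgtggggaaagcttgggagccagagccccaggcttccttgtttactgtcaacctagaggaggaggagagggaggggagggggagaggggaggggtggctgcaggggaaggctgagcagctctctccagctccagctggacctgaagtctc

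The labelled cell line was checked by its markers. All 10 markers chosen for a basal breast epithelial line (among them KRT5, KRT14, TP63 and CDH1) were above 0 in every sample. Their summed level was 4037 to 4229 TPM in the control samples, 7527 to 7806 TPM in high calcium and 6497 to 7520 TPM in TGFb3. Of the 10, 9 were called higher and 1 lower in high calcium, and 8 higher and 1 lower in TGFb3. ITGA6 went from 288 to 303 TPM in the controls down to 216 to 221 TPM in high calcium. EPCAM went from 277 to 306 TPM down to 113 to 124 TPM in TGFb3. KRT14 had only 2.26 to 10.6 TPM in the controls. Of 9 markers of macrophages and osteoclasts, cells rich in lysosomes and pump isoforms, PTPRC, DCSTAMP, OCSTAMP and CALCR were listed at 0 in all 9 samples, and the sum was 22.0 to 25.3, 39.9 to 47.1 and 15.2 to 17.2 TPM in the same order. Of 6 markers of acid-secreting kidney cells, SLC4A1, SLC4A9, AQP6 and ASCL3 were listed at 0 throughout, and the sum stayed at or under 0.785 TPM. Of 5 neuronal markers STMN2 and RBFOX3 were listed at 0, with a sum of at most 3.57 TPM, and 5 fibroblast markers, none of them at 0 throughout, summed to 2.60 to 3.44, 9.75 to 12.3 and 28.4 to 32.0 TPM. Mitochondrial genes took 21.7 to 23.3% of all TPM in the controls, 11.1 to 11.9% in high calcium and 22.2 to 23.3% in TGFb3. The nuclear noncoding RNA MALAT1 had 124 to 208, 388 to 449 and 191 to 216 TPM in the same order, and what this shift has to do with the differences was not tested. The median gene was 0.22 higher (log2) in high calcium than in the controls. Differences of high calcium from the controls or from TGFb3 are therefore followed by their value relative to the median of all tested genes in that comparison ("relative"). The median was -0.06 for TGFb3. Calls are those on the values as deposited, and calls in high calcium that changed after median ratio rescaling are named. Rescaling divides each library by the median ratio of its genes to the mean library, which was 0.93 to 0.98 in the controls, 1.12 to 1.13 in high calcium and 0.92 to 0.93 in TGFb3. Summed levels of a class of genes are given as deposited and carry this shift. The part of the mitochondrial share in the differences was not tested beyond the refit without mitochondrial genes. In RNA from whole cultures, fewer cells of a type and less RNA per cell cannot be told apart.

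Most lysosomal membrane proteins had more RNA in high calcium than in the controls. The 27 genes together amounted to 1159, 1169 and 1184 TPM in the control samples, 1665, 1685 and 1651 TPM in high calcium and 1619, 1595 and 1576 TPM in TGFb3, so that every treated sample was above every control. Against the controls, 19 of the 27 (70.4%) were higher in high calcium, 1 was lower and 7 were not called, where 46.1% of all tested genes were higher and 17% lower. The median log2 difference was 0.38 for the 27, against 0.22 for all tested genes. After rescaling, 11 (40.7%) were higher and 2 lower, where 30.2% of all genes were higher and 30% lower, and LAMP1, CLCN7, OSTM1, CLN3, MFSD8, MFSD1, GLMP and TPCN1 were no longer called. The plot of the membrane proteins by sample shows their spread over the range of expression.

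**Figure D1:**
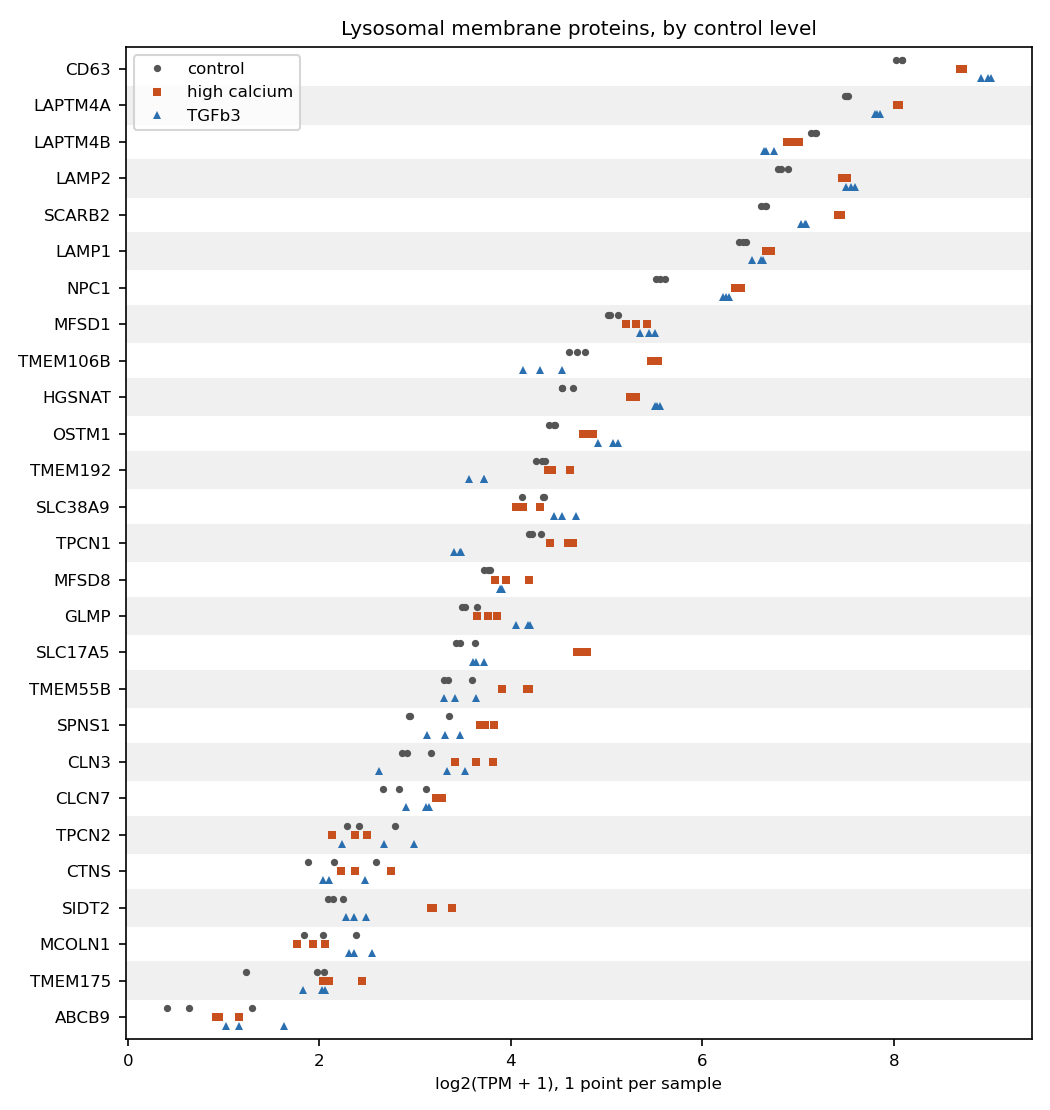
Each row is a lysosomal membrane protein gene and each point 1 of the 9 samples, on a log2(TPM + 1) axis, with the controls as grey circles, high calcium as orange squares and TGFb3 as blue triangles. CD63, NPC1, SCARB2 and LAMP2 lie above the controls in all 6 treated samples, TPCN1 and TMEM192 lie below them in TGFb3 only, and LAPTM4B lies below them in both.

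CD63, LAMP2, SCARB2 and LAMP1, together with LAPTM4A and LAPTM4B, which are described further on, were the 6 most abundant of the 27 in every group. CD63 is a tetraspanin of late endosomes and lysosomes. It had 270.1, 269 and 259 TPM in the control samples, 410.1, 420.4 and 411 TPM in high calcium and 515, 503 and 480.3 TPM in TGFb3, and its levels in the 3 groups did not overlap. The difference from the controls was 0.64 ± 0.037 (0.41 relative, adjusted p = 3e-07) in high calcium and 0.91 ± 0.037 (adjusted p = 3.5e-08) in TGFb3. CD63 had the highest level of all 50 genes in every group. LAMP2 is a main constituent of the lysosomal membrane whose splice forms take part in autophagy. It had 109.9, 112 and 118 TPM in the control samples, 178, 181 and 174 TPM in high calcium and 179, 186 and 192 TPM in TGFb3. The treated samples were all above the controls and overlapped between the treatments, with differences of 0.65 ± 0.041 (0.42 relative, adjusted p = 5.1e-07) in high calcium and 0.71 ± 0.041 (adjusted p = 2.7e-07) in TGFb3. LAMP1 is its closest relative. It had 82.6, 84.9 and 86.9 TPM in the control samples, 100.0, 102 and 104 TPM in high calcium and 98.2, 96.5 and 90.4 TPM in TGFb3, and again every treated sample exceeded every control. Its differences were smaller, 0.26 ± 0.043 (0.04 relative, adjusted p = 0.0004) and 0.16 ± 0.043 (adjusted p = 0.0083), and the one in high calcium fell to 0.03 after rescaling (adjusted p = 0.63). SCARB2 is the receptor that carries glucocerebrosidase to the lysosome. It had 96.7, 99.5 and 100.4 TPM in the control samples, 171, 170.0 and 173 TPM in high calcium and 134, 135 and 129 TPM in TGFb3. The 3 groups stood apart, with the highest level in high calcium, and the difference from the controls was 0.79 ± 0.034 (0.56 relative, adjusted p = 3.9e-08) there and 0.42 ± 0.034 (adjusted p = 3.1e-06) in TGFb3.

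The carriers moved unevenly. SLC17A5 is sialin, which exports sialic acid. It had 9.75, 10.1 and 11.3 TPM in the control samples, 26.7, 26.3 and 24.8 TPM in high calcium and 12.2, 11.4 and 11.1 TPM in TGFb3. High calcium stood far above the other groups with a difference of 1.24 ± 0.073 (1.02 relative, adjusted p = 3e-07), the largest among the membrane proteins, while TGFb3 differed by 0.15 ± 0.073 (adjusted p = 0.11) and lay within or just above the control range. The latter was called higher after rescaling (0.19, adjusted p = 0.028) and without control sample 3 (0.20, adjusted p = 0.034). NPC1 moves cholesterol out of the lysosome. It had 45.9, 44.8 and 47.9 TPM in the control samples, 79.7, 83.3 and 82.8 TPM in high calcium and 73.0, 74.8 and 76.8 TPM in TGFb3. All 6 treated samples were well above the controls, by 0.81 ± 0.043 (0.59 relative, adjusted p = 1.3e-07) in high calcium and 0.68 ± 0.043 (adjusted p = 4.5e-07) in TGFb3. SIDT2 is linked to nucleic acid uptake into lysosomes. It had 3.26, 3.41 and 3.76 TPM in the control samples, 9.42, 7.94 and 8.09 TPM in high calcium and 3.85, 4.61 and 4.16 TPM in TGFb3. It rose in high calcium by 1.08 ± 0.11 (0.86 relative, adjusted p = 1.1e-05) and was not called in TGFb3 (0.22 ± 0.11, adjusted p = 0.1). SPNS1, an exporter of lysophospholipids, rose from 7.53 ± 1.47 TPM to 12.4 ± 0.706 TPM (mean ± SD, n = 3) in high calcium, by 0.67 ± 0.13 (0.44 relative, adjusted p = 0.0013), and had 8.89 ± 1.16 TPM in TGFb3, where it was called only without control sample 3 (0.36, adjusted p = 0.02).

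MFSD1, a dipeptide carrier, and GLMP, the glycoprotein that protects it, were each called higher in both treatments. MFSD1 had 33.7, 31.3 and 31.8 TPM in the control samples, 41.9, 35.9 and 38.7 TPM in high calcium and 42.5, 39.7 and 44.5 TPM in TGFb3. Its treated samples lay above the controls, by 0.26 ± 0.067 (0.03 relative, adjusted p = 0.0069) in high calcium and 0.38 ± 0.067 (adjusted p = 0.00075) in TGFb3. Of its exon bases 6.26% overlap RARRES1 on the other strand, and strandedness is not given in the sources used here. RARRES1 was higher in high calcium (0.65 ± 0.087, 0.42 relative, adjusted p = 0.00011) and lower in TGFb3 (-1.21 ± 0.087, adjusted p = 1.3e-06). GLMP had 11.5, 10.5 and 10.3 TPM in the control samples, 13.4, 11.5 and 12.5 TPM in high calcium and 17.4, 17.0 and 15.6 TPM in TGFb3. TGFb3 stood above both other groups with a difference of 0.59 ± 0.080 (adjusted p = 0.00011), while high calcium differed by 0.20 ± 0.080 (-0.02 relative, adjusted p = 0.049), close to the threshold, and reached -0.02 after rescaling. Of the exon bases of GLMP 17.5% lie opposite TMEM79, which was higher in high calcium (0.45 ± 0.14, 0.22 relative, adjusted p = 0.019) and not called in TGFb3. SLC38A9, which senses arginine in the lysosome for mTORC1, was not called in high calcium (-0.10 ± 0.093, -0.33 relative, adjusted p = 0.36), though after rescaling it was called lower (-0.33, adjusted p = 0.012). In TGFb3 it had 20.9, 24.6 and 22.1 TPM against 19.3, 16.3 and 19.2 TPM in the controls, a difference of 0.29 ± 0.093 (adjusted p = 0.021). It was not called without control sample 2 (adjusted p = 0.082) or TGFb3 sample 2 (adjusted p = 0.079). CTNS, which exports cystine, and ABCB9, a peptide transporter, were low, at 3.73 ± 1.20 TPM and 0.776 ± 0.594 TPM in the controls, and were called in neither treatment, except for ABCB9 in TGFb3 without control sample 3 (0.75, adjusted p = 0.018). Of the exon bases of ABCB9 12.0% lie opposite ARL6IP4, which had 123 to 153 TPM in the control samples, and 20.7% opposite AC026362.1. Without strandedness, reads of these bases cannot be assigned to one gene.

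The channels did not move together. TPCN1 is an endolysosomal channel of the TPC family. It had 17.3, 17.7 and 18.9 TPM in the control samples, 23.1, 24.0 and 20.3 TPM in high calcium and 10.2, 10.1 and 9.56 TPM in TGFb3. It was highest in every high calcium sample and lowest in every TGFb3 sample, with differences of 0.31 ± 0.075 (0.08 relative, adjusted p = 0.0051) and -0.79 ± 0.075 (adjusted p = 9.3e-06), and the rise in high calcium was not called after rescaling (0.08, adjusted p = 0.36). Its relative TPCN2 had 4.72 ± 1.07 TPM, 4.07 ± 0.641 TPM and 5.35 ± 1.61 TPM in the controls, high calcium and TGFb3 (mean ± SD, n = 3) and was called in neither treatment. MCOLN1 is the calcium release channel of the lysosome. It had 2.57, 3.11 and 4.23 TPM in the control samples, 2.81, 2.40 and 3.17 TPM in high calcium and 4.87, 4.15 and 3.96 TPM in TGFb3. Its high calcium samples overlapped the controls (difference -0.17 ± 0.16, -0.39 relative, adjusted p = 0.37), and in TGFb3 2 of 3 samples lay within the control range (difference 0.32 ± 0.16, adjusted p = 0.1). Without control sample 3 it was called higher in TGFb3 (0.47, adjusted p = 0.02). TMEM175, a potassium and proton channel, was called in neither treatment, with 2.48 ± 0.983 TPM, 3.62 ± 0.730 TPM and 2.93 ± 0.335 TPM. CLCN7, a chloride and proton exchanger, and its partner subunit OSTM1 were both called higher in high calcium, by 0.38 ± 0.12 (0.15 relative, adjusted p = 0.019) and 0.38 ± 0.063 (0.15 relative, adjusted p = 0.0005), and neither call held after rescaling. CLCN7 had 5.36, 6.10 and 7.64 TPM in the control samples, 8.50, 8.71 and 8.31 TPM in high calcium and 7.87, 6.50 and 7.67 TPM in TGFb3, and its call in high calcium was lost without control sample 1 (adjusted p = 0.07), control sample 2 (adjusted p = 0.055) or high calcium sample 2 (adjusted p = 0.053). OSTM1 had 20.9, 21.0 and 20.1 TPM in the control samples, 25.9, 27.6 and 27.9 TPM in high calcium and 29.1, 33.7 and 32.5 TPM in TGFb3, so that it was highest in TGFb3, with a difference of 0.59 ± 0.063 (adjusted p = 2.1e-05), while CLCN7 was not called there (0.19 ± 0.12, adjusted p = 0.21) except without control sample 3 (0.31, adjusted p = 0.032).

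Among the other membrane proteins, TMEM106B is a gene linked to frontotemporal dementia. It had 23.3, 24.8 and 26.3 TPM in the control samples, 45.5, 44.8 and 43.2 TPM in high calcium and 18.7, 16.5 and 22.2 TPM in TGFb3. High calcium stood far above and TGFb3 below the controls, with differences of 0.82 ± 0.093 (0.60 relative, adjusted p = 3.4e-05) and -0.36 ± 0.093 (adjusted p = 0.0069). HGSNAT is the enzyme that acetylates heparan sulfate for its breakdown. It had 22.2, 24.1 and 22.2 TPM in the control samples, 37.0, 38.5 and 38.5 TPM in high calcium and 45.0, 44.4 and 46.1 TPM in TGFb3. All 3 groups stood apart, and both treatments were higher, by 0.71 ± 0.050 (0.49 relative, adjusted p = 9.4e-07) and 0.96 ± 0.050 (adjusted p = 1.4e-07). TMEM192 is a membrane protein of unclear function widely used as a tag to purify lysosomes. It had 18.2, 19.5 and 19.1 TPM in the control samples, 20.0, 23.5 and 20.5 TPM in high calcium and 10.8, 12.1 and 12.1 TPM in TGFb3. High calcium was not called (0.16 ± 0.077, -0.06 relative, adjusted p = 0.095), while every TGFb3 sample was below every other sample, with a difference of -0.65 ± 0.077 (adjusted p = 4.6e-05). TMEM55B, which helps to position lysosomes in the cell, rose in high calcium from 9.68 ± 1.20 TPM to 16.0 ± 1.79 TPM (mean ± SD, n = 3), by 0.67 ± 0.12 (0.45 relative, adjusted p = 0.00068), and was not called in TGFb3.

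CLN3 and MFSD8 are both mutated in forms of Batten disease. CLN3 had 6.57, 6.25 and 8.002 TPM in the control samples, 11.5, 9.65 and 13.1 TPM in high calcium and 10.5, 5.16 and 9.10 TPM in TGFb3, and MFSD8 had 12.1, 12.8 and 12.6 TPM in the control samples, 17.3, 14.4 and 13.2 TPM in high calcium and 13.8, 13.9 and 14.0 TPM in TGFb3. In high calcium both lay above the controls in every sample and were called higher, by 0.64 ± 0.21 (0.42 relative, adjusted p = 0.023) and 0.24 ± 0.089 (0.01 relative, adjusted p = 0.04). In TGFb3 neither was called, except CLN3 without TGFb3 sample 2 (0.44, adjusted p = 0.027). The high calcium call of CLN3 was lost without control sample 1 (adjusted p = 0.062), control sample 2 (adjusted p = 0.071), high calcium sample 1 (adjusted p = 0.055) or high calcium sample 3 (adjusted p = 0.079). That of MFSD8 was lost without control sample 1 (adjusted p = 0.1), control sample 2 (adjusted p = 0.067), control sample 3 (adjusted p = 0.071), high calcium sample 1 (adjusted p = 0.15), high calcium sample 2 (adjusted p = 0.062), TGFb3 sample 1 (adjusted p = 0.052), TGFb3 sample 2 (adjusted p = 0.053) or TGFb3 sample 3 (adjusted p = 0.052). That of GLMP was lost without control sample 2 (adjusted p = 0.12), control sample 3 (adjusted p = 0.12), high calcium sample 1 (adjusted p = 0.17), high calcium sample 3 (adjusted p = 0.1), TGFb3 sample 1 (adjusted p = 0.056) or TGFb3 sample 2 (adjusted p = 0.064). The pair LAPTM4A and LAPTM4B, small proteins that span the membrane of late endosomes and lysosomes, split. LAPTM4A had 182, 182 and 178 TPM in the control samples, 264, 262 and 261 TPM in high calcium and 230.1, 226 and 222 TPM in TGFb3. It was higher in all treated samples, by 0.53 ± 0.031 (0.31 relative, adjusted p = 3e-07) and 0.32 ± 0.031 (adjusted p = 1.1e-05). LAPTM4B had 139, 145 and 144 TPM in the control samples, 122, 128 and 117 TPM in high calcium and 106, 99.2 and 100.1 TPM in TGFb3. It was lower in all treated samples, with differences of -0.22 ± 0.045 (-0.44 relative, adjusted p = 0.0016) in high calcium and -0.48 ± 0.045 (adjusted p = 7.8e-06) in TGFb3, and was the 1 membrane protein called lower in both treatments.

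In TGFb3 the membrane proteins differed from the controls in both directions. Of the 27 genes, 11 (40.7%) were called higher, 4 lower and 12 not called, where 26.5% of all tested genes were higher and 33.1% lower. The median log2 difference was 0.22 for the 27 and -0.06 for all tested genes. The 4 that fell were TPCN1, TMEM192, LAPTM4B and TMEM106B. LAMP1, LAMP2, CD63, SCARB2, NPC1, OSTM1, LAPTM4A, MFSD1, GLMP and HGSNAT were called higher in both treatments as deposited. Of these, LAMP1, OSTM1, MFSD1 and GLMP were not called in high calcium after rescaling. How many of all tested genes were called higher in both treatments was not counted. Both comparisons share the same controls, so a call in both is no independent support of either. Leaving out control sample 3 raised the count of higher membrane proteins in TGFb3 from 11 to 16.

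The V0 sector was followed by subunit. Its 9 genes summed to 337, 339.8 and 340.4 TPM in the control samples, 414, 427 and 408 TPM in high calcium and 399, 406 and 376 TPM in TGFb3, higher in every treated sample on the values as deposited. Of the 8 tested, 5 (62.5%) were called higher and 0 lower in high calcium, against 46.1% and 17% of all tested genes, with a median of 0.33. After rescaling 4 (50.0%) were higher and 1, ATP6V0A2, lower, against 30.2% and 30%. In TGFb3 4 (50.0%) were higher and 3 (37.5%) lower, against 26.5% and 33.1%, with a median of 0.19. The proton-carrying ring is built of ATP6V0C and ATP6V0B. ATP6V0C had 76.4, 76.5 and 89.0 TPM in the control samples, 103, 112 and 107 TPM in high calcium and 95.5, 87.6 and 87.1 TPM in TGFb3. It was higher in high calcium by 0.41 ± 0.067 (0.18 relative, adjusted p = 0.00041) and not called in TGFb3 (0.16 ± 0.067, adjusted p = 0.062), where it was called after rescaling and without control sample 3 (0.23, adjusted p = 0.0062). ATP6V0B had 26.9, 30.8 and 30.1 TPM in the control samples, 48.4, 46.2 and 44.3 TPM in high calcium and 25.3, 23.7 and 25.8 TPM in TGFb3. It stood above all other samples in high calcium (0.65 ± 0.064, 0.42 relative, adjusted p = 1.2e-05) and below the controls in TGFb3 (-0.22 ± 0.064, adjusted p = 0.013), and the latter call was lost without control sample 2 (adjusted p = 0.055) or TGFb3 sample 2 (adjusted p = 0.05).

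The a subunit, which couples the ring to the stalk and sends the pump to its membrane, has several isoforms. ATP6V0A1 is found in most tissues. It had 14.4, 16.1 and 17.7 TPM in the control samples, 25.6, 28.5 and 28.1 TPM in high calcium and 20.2, 20.8 and 19.8 TPM in TGFb3. All treated samples exceeded the controls, by 0.74 ± 0.077 (0.51 relative, adjusted p = 1.8e-05) in high calcium and 0.32 ± 0.077 (adjusted p = 0.0048) in TGFb3. ATP6V0A2 is known from the Golgi and endosomes. It had 14.9, 15.5 and 16.3 TPM in the control samples, 15.8, 15.4 and 15.3 TPM in high calcium and 10.9, 10.8 and 11.8 TPM in TGFb3. High calcium matched the control range (difference 0.00 ± 0.065, -0.23 relative, adjusted p = 0.98, and -0.23 after rescaling, adjusted p = 0.0073), and TGFb3 was lower in every sample, with a difference of -0.44 ± 0.065 (adjusted p = 0.00021). ATP6V0A4 is known mainly from the acid-secreting cells of the kidney. It had 1.70, 2.22 and 1.72 TPM in the control samples, 6.51, 7.03 and 6.84 TPM in high calcium and 5.12, 5.60 and 5.11 TPM in TGFb3. It was low in the controls and higher in all 6 treated samples, by 1.44 ± 0.11 (1.22 relative, adjusted p = 1.5e-06) and 1.13 ± 0.11 (adjusted p = 8.8e-06). TCIRG1 is the a isoform of osteoclasts and secretory lysosomes, which is not among the 50 genes. It had 3.58, 3.42 and 5.42 TPM in the control samples, 3.84, 3.99 and 5.80 TPM in high calcium and 10.5, 7.99 and 7.25 TPM in TGFb3. It was called higher in TGFb3 (0.91 ± 0.19, adjusted p = 0.0023) and not called in high calcium (0.11 ± 0.19, -0.11 relative, adjusted p = 0.63). The difference between the treatments was -0.79 ± 0.19 (-1.06 relative, adjusted p = 0.0044).

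As shares of the summed TPM of the 4 a isoforms, which no rescaling of a library changes, ATP6V0A2 held 43.0, 41.6 and 39.6% in the controls, 30.6, 28.1 and 27.3% in high calcium and 23.3, 23.9 and 26.8% in TGFb3. ATP6V0A1 held 41.8, 43.2 and 43.1% in the controls, 49.4, 51.9 and 50.1% in high calcium and 43.2, 46.0 and 45.1% in TGFb3. For ATP6V0A4 the shares were 4.92, 5.94 and 4.19% in the controls, 12.6, 12.8 and 12.2% in high calcium and 10.9, 12.4 and 11.6% in TGFb3. In both treatments, then, the share of ATP6V0A2 was lower and that of ATP6V0A4 higher in every sample than in every control. TCIRG1 held 10.4, 9.17 and 13.2% in the controls, 7.42, 7.25 and 10.4% in high calcium and 22.5, 17.7 and 16.5% in TGFb3, above all other samples in TGFb3. Over 10 isoform families, 39 differences of shares were compared, and in 29 the groups did not overlap. No such count was made for other genes. The 39 are not independent, as the shares of a family add up to a whole and the comparisons share groups. Among the 29 are ATP6V0D2 in TGFb3 against the controls and ATP6V1G2 between the treatments, both genes too low to be tested. With 3 samples against 3 an exact two-sided permutation test cannot go below p = 0.1, which these 29 reach, and their adjusted p was 0.13, so no share passed a threshold of 0.05.

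**Figure D2:**
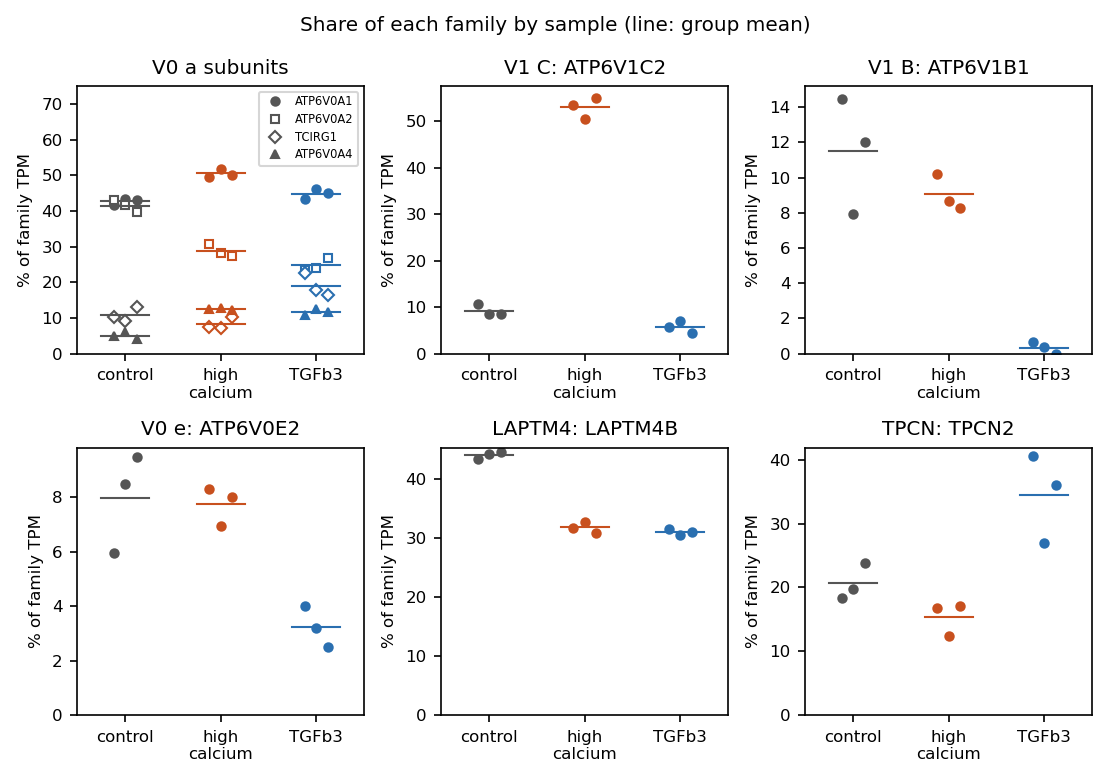
Each panel plots the percent of a family's summed TPM held by the named isoform in each of the 9 samples, by group, with the group mean as a line, and the V0 a panel holds its 4 isoforms. The share of ATP6V1C2 exceeds 50% in high calcium only, ATP6V1B1 lies under 1% in TGFb3, and LAPTM4B lies lower in both treatments.

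The remaining V0 subunits were d and e. ATP6V0D1 is the common d isoform that joins the ring to the central stalk. It had 32.6, 28.98 and 29.8 TPM in the control samples, 35.5, 39.4 and 33.9 TPM in high calcium and 38.1, 34.5 and 33.6 TPM in TGFb3, with differences of 0.24 ± 0.074 (0.02 relative, adjusted p = 0.016) in high calcium and 0.21 ± 0.074 (adjusted p = 0.032) in TGFb3. The first call was lost after rescaling (0.01, adjusted p = 0.93) and without control sample 2 (adjusted p = 0.059) or high calcium sample 2 (adjusted p = 0.065). The second was lost without control sample 2 (adjusted p = 0.11), control sample 3 (adjusted p = 0.08), TGFb3 sample 1 (adjusted p = 0.11) or TGFb3 sample 2 (adjusted p = 0.05). ATP6V0D2 was listed at 0 in every control. High calcium had 0.191, 0 and 0.304 TPM and TGFb3 0.432, 0.764 and 0.249 TPM, too low for a test. ATP6V0E1 is the common e isoform. It had 159.6, 155 and 141 TPM in the control samples, 165, 166 and 158 TPM in high calcium and 195, 215 and 188 TPM in TGFb3. Every TGFb3 sample was above all others, by 0.39 ± 0.060 (adjusted p = 0.00028), and high calcium was not called (0.10 ± 0.060, -0.12 relative, adjusted p = 0.16). ATP6V0E2 is known mainly from brain. It had 10.1, 14.4 and 14.8 TPM in the control samples, 14.9, 12.4 and 13.8 TPM in high calcium and 8.12, 7.09 and 4.84 TPM in TGFb3. It was lower in every TGFb3 sample, with a difference of -0.88 ± 0.18 (adjusted p = 0.0018), and not called in high calcium (0.08 ± 0.18, -0.15 relative, adjusted p = 0.73). Its share of the e pair was 5.94, 8.49 and 9.48% in the controls, 8.29, 6.94 and 8.03% in high calcium and 3.99, 3.19 and 2.51% in TGFb3.

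**Figure D3:**
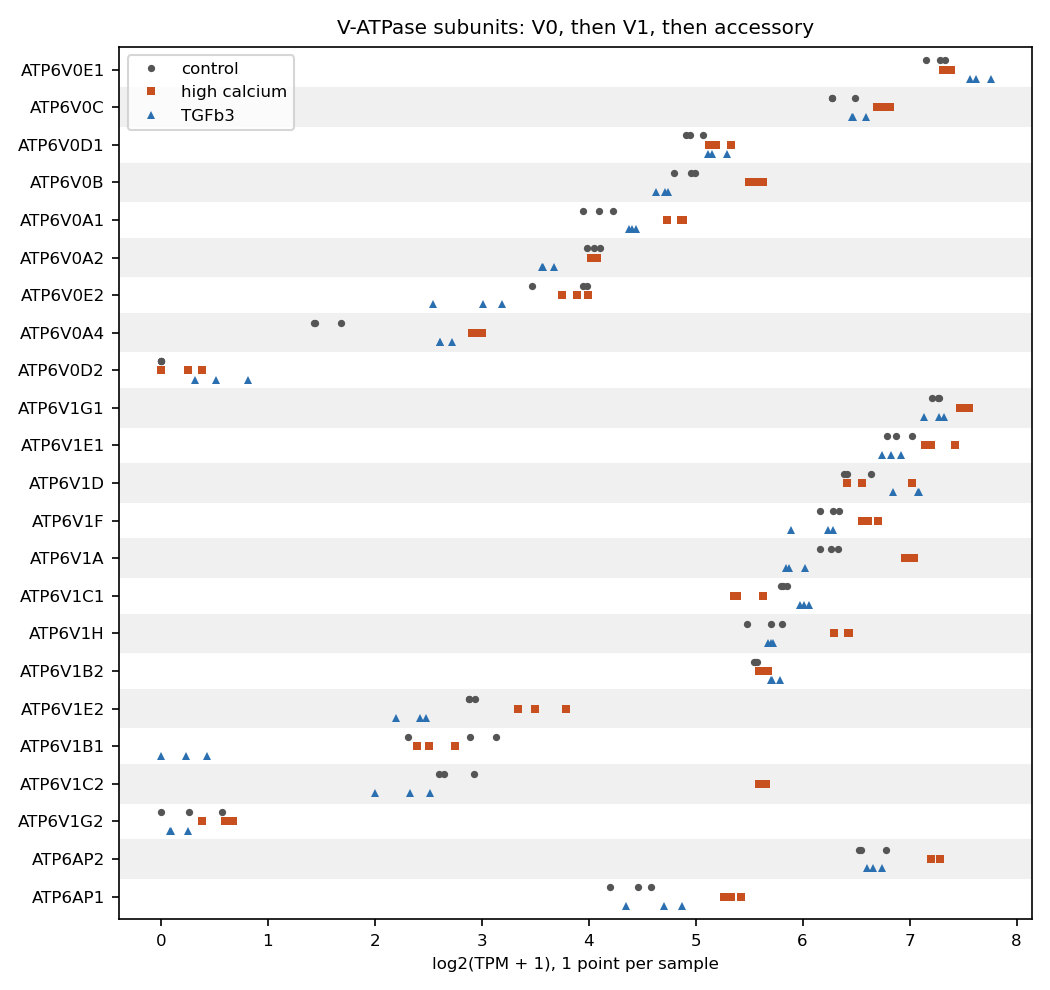
Each row is a V-ATPase gene (V0 subunits at the top, then V1, then accessory, each ordered by control level) and each point 1 of the 9 samples, on a log2(TPM + 1) axis, with symbols as for the membrane proteins. ATP6V1C2 lies far to the right of its controls in high calcium, ATP6V1B1 far to the left in TGFb3, and ATP6V1A above them in high calcium and below them in TGFb3.

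As a sum, the V1 sector was higher in high calcium and near the controls in TGFb3. Its 12 genes summed to 659, 709.9 and 669.8 TPM in the control samples, 920.2, 868 and 911 TPM in high calcium and 727, 706 and 655 TPM in TGFb3, the last of which overlapped the controls. Of the 11 tested, 7 (63.6%) were called higher and 1 lower in high calcium, against 46.1% and 17% of all tested genes, with a median of 0.36. After rescaling 4 (36.4%) were higher and 2 lower, against 30.2% and 30%. In TGFb3 3 (27.3%) were higher and 4 (36.4%) lower, shares near the 26.5% and 33.1% of all genes, and the median of -0.06 was also close to that of all genes. ATP6V1A is the catalytic subunit that hydrolyses ATP. It had 70.5, 76.1 and 79.5 TPM in the control samples, 131, 124 and 128 TPM in high calcium and 56.6, 57.5 and 64.2 TPM in TGFb3. The 3 groups stood apart, high calcium above and TGFb3 below the controls, with differences of 0.75 ± 0.060 (0.53 relative, adjusted p = 2.6e-06) and -0.34 ± 0.060 (adjusted p = 0.00073). ATP6V1H is a regulatory subunit. It had 43.6, 54.8 and 51.0 TPM in the control samples, 85.0, 77.6 and 85.3 TPM in high calcium and 51.1, 50.3 and 51.9 TPM in TGFb3. It was higher in high calcium by 0.72 ± 0.077 (0.50 relative, adjusted p = 2e-05) and not called in TGFb3 (0.04 ± 0.077, adjusted p = 0.66).

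The B subunit pairs with A in the catalytic head. ATP6V1B2 is its common isoform. It had 45.8, 45.9 and 46.7 TPM in the control samples, 50.3, 49.2 and 47.1 TPM in high calcium and 54.4, 51.2 and 51.4 TPM in TGFb3. TGFb3 was above all controls, by 0.18 ± 0.044 (adjusted p = 0.0058), and high calcium was not called (0.08 ± 0.044, -0.14 relative, adjusted p = 0.13) but was called lower after rescaling (-0.15, adjusted p = 0.011). ATP6V1B1 is known from the acid-secreting cells of kidney and inner ear. It had 7.76, 3.97 and 6.39 TPM in the control samples, 5.73, 4.68 and 4.24 TPM in high calcium and 0.350, 0.179 and 0 TPM in TGFb3. It fell to nearly 0 in all 3 TGFb3 samples, a difference of -2.55 ± 0.21 (adjusted p = 3.7e-06), while high calcium overlapped the controls (-0.23 ± 0.21, -0.45 relative, adjusted p = 0.38). ATP6V1B1 shares 62.4% of its exon bases (GENCODE 29, chr2:70935868-70965431) with VAX2 on the same strand, and VAX2 was listed at 0 in 8 of the 9 samples. The share of ATP6V1B1 in the B pair was 14.5, 7.96 and 12.0% in the controls, 10.2, 8.68 and 8.26% in high calcium and 0.639, 0.348 and 0% in TGFb3, while the summed B level was 52.2, 53.8 and 52.5 TPM as group means.

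The C subunit, a stalk component involved in reversible assembly of V1 with V0, had the largest change of isoforms. ATP6V1C1 is its common form. It had 54.8, 55.2 and 57.0 TPM in the control samples, 40.9, 48.4 and 40.0 TPM in high calcium and 65.7, 62.0 and 63.7 TPM in TGFb3. It was lower than every control in all high calcium samples, with a difference of -0.37 ± 0.067 (-0.59 relative, adjusted p = 0.0009), and higher in TGFb3 by 0.19 ± 0.067 (adjusted p = 0.03), a call that was lost without control sample 1 (adjusted p = 0.078), control sample 2 (adjusted p = 0.075), TGFb3 sample 1 (adjusted p = 0.086) or TGFb3 sample 3 (adjusted p = 0.063). ATP6V1C2 is known mainly from lung and kidney. It had 6.59, 5.07 and 5.28 TPM in the control samples, 47.1, 49.5 and 49.1 TPM in high calcium and 4.04, 4.73 and 3.00 TPM in TGFb3. High calcium stood far above the other groups, by 2.91 ± 0.13 (2.68 relative, adjusted p = 5.3e-08), and TGFb3 was lower than all controls, with a difference of -0.44 ± 0.13 (adjusted p = 0.016), a call that was lost without control sample 1 (adjusted p = 0.059). Its share of the C pair was 10.7, 8.41 and 8.48% in the controls, 53.5, 50.6 and 55.1% in high calcium and 5.79, 7.09 and 4.50% in TGFb3. The values of ATP6V1C2 carry a limit of their own, in that 1033 of its 3483 exon bases (29.7%, GENCODE 29, chr2:10721100-10785110) lie opposite exons of PDIA6, an abundant protein disulfide isomerase of the endoplasmic reticulum. PDIA6 had 280.2, 283 and 273 TPM in the control samples, 885, 893 and 894 TPM in high calcium and 344, 344 and 331 TPM in TGFb3, a difference of 1.67 ± 0.033 (1.45 relative) in high calcium and 0.28 ± 0.033 in TGFb3, called higher in both. In high calcium PDIA6 was higher too, while in TGFb3 it was higher where ATP6V1C2 was lower. The strandedness of the libraries is not given in the sources used here, and without it reads of the shared bases cannot be assigned to one or the other gene.

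The other stalk subunits are D, F, E and G. ATP6V1D is of the central stalk. It had 84.5, 98.9 and 82.8 TPM in the control samples, 129, 84.4 and 93.0 TPM in high calcium and 134, 135 and 114 TPM in TGFb3. It was higher in TGFb3 by 0.52 ± 0.14 (adjusted p = 0.0094) and not called in high calcium (0.18 ± 0.14, -0.04 relative, adjusted p = 0.29), where 1 sample was high and the others lay in the control range. Of its exon bases 6.33% lie opposite EIF2S1, which was lower than the controls in both treatments. ATP6V1F, also of the central stalk, rose in high calcium from 76.1 ± 4.82 TPM to 97.8 ± 5.16 TPM (mean ± SD, n = 3), by 0.36 ± 0.097 (0.14 relative, adjusted p = 0.0087), and was not called in TGFb3. The peripheral stalk subunits ATP6V1E1 and ATP6V1G1 were higher in high calcium by 0.36 ± 0.084 (0.14 relative, adjusted p = 0.0035) and 0.25 ± 0.051 (0.03 relative, adjusted p = 0.0017), and not called in TGFb3. None of the calls of ATP6V1F, ATP6V1E1 and ATP6V1G1 held after rescaling. ATP6V1E2 is the testis form of E. It had 6.38, 6.39 and 6.68 TPM in the control samples, 9.12, 10.3 and 12.8 TPM in high calcium and 4.35, 4.59 and 3.58 TPM in TGFb3. It was higher in all high calcium samples, by 0.64 ± 0.13 (0.41 relative, adjusted p = 0.0014), a call that was lost after quantile normalisation (0.31, adjusted p = 0.075). It was lower in all TGFb3 samples, with a difference of -0.54 ± 0.13 (adjusted p = 0.0042). ATP6V1E2 shares 2.93% of its exon bases with RHOQ on the other strand, which was higher in both treatments. ATP6V1G2, the brain form of G, stayed at or under 0.591 TPM in every sample.

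Both accessory subunits were called higher in high calcium and neither was in TGFb3. ATP6AP1 helps to assemble the pump. It had 17.4, 21.1 and 23.0 TPM in the control samples, 39.3, 41.9 and 37.3 TPM in high calcium and 28.3, 25.0 and 19.4 TPM in TGFb3. It was higher in high calcium by 0.92 ± 0.13 (0.70 relative, adjusted p = 0.00018). TGFb3 was not called (0.23 ± 0.13, adjusted p = 0.17), except without TGFb3 sample 3 (0.37, adjusted p = 0.02). ATP6AP2 is also known as the prorenin receptor. It had 92.7, 109 and 91.1 TPM in the control samples, 146, 146 and 155 TPM in high calcium and 96.2, 106 and 100.2 TPM in TGFb3. High calcium stood above both other groups, by 0.61 ± 0.069 (0.39 relative, adjusted p = 3.1e-05), and TGFb3 overlapped the controls (0.05 ± 0.069, adjusted p = 0.54).

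Over all 48 tested genes, 33 (68.8%) were called higher, 2 lower and 13 not in high calcium, against 46.1% higher and 17% lower among all genes, with a median of 0.38. In TGFb3 18 (37.5%) were higher, 11 (22.9%) lower and 19 not called, against 26.5% and 33.1%, with a median of 0.18. After rescaling 21 (43.8%) of the 48 were higher in high calcium, all of them among the 33, and 5 were lower, against 30.2% and 30% of all genes. In TGFb3 rescaling added ATP6V0C and SLC17A5 to the higher genes. Called higher in high calcium and lower in TGFb3 as deposited were TPCN1, TMEM106B, ATP6V0B, ATP6V1A, ATP6V1C2 and ATP6V1E2, and ATP6V1C1 was called the opposite way. How many of all tested genes had such opposite calls was not counted, and both comparisons share the controls. As given above, TPCN1 was not called in high calcium after rescaling. The TGFb3 calls of ATP6V0B, ATP6V1C2 and ATP6V1C1 were each lost when certain single samples were left out.

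**Figure D4:**
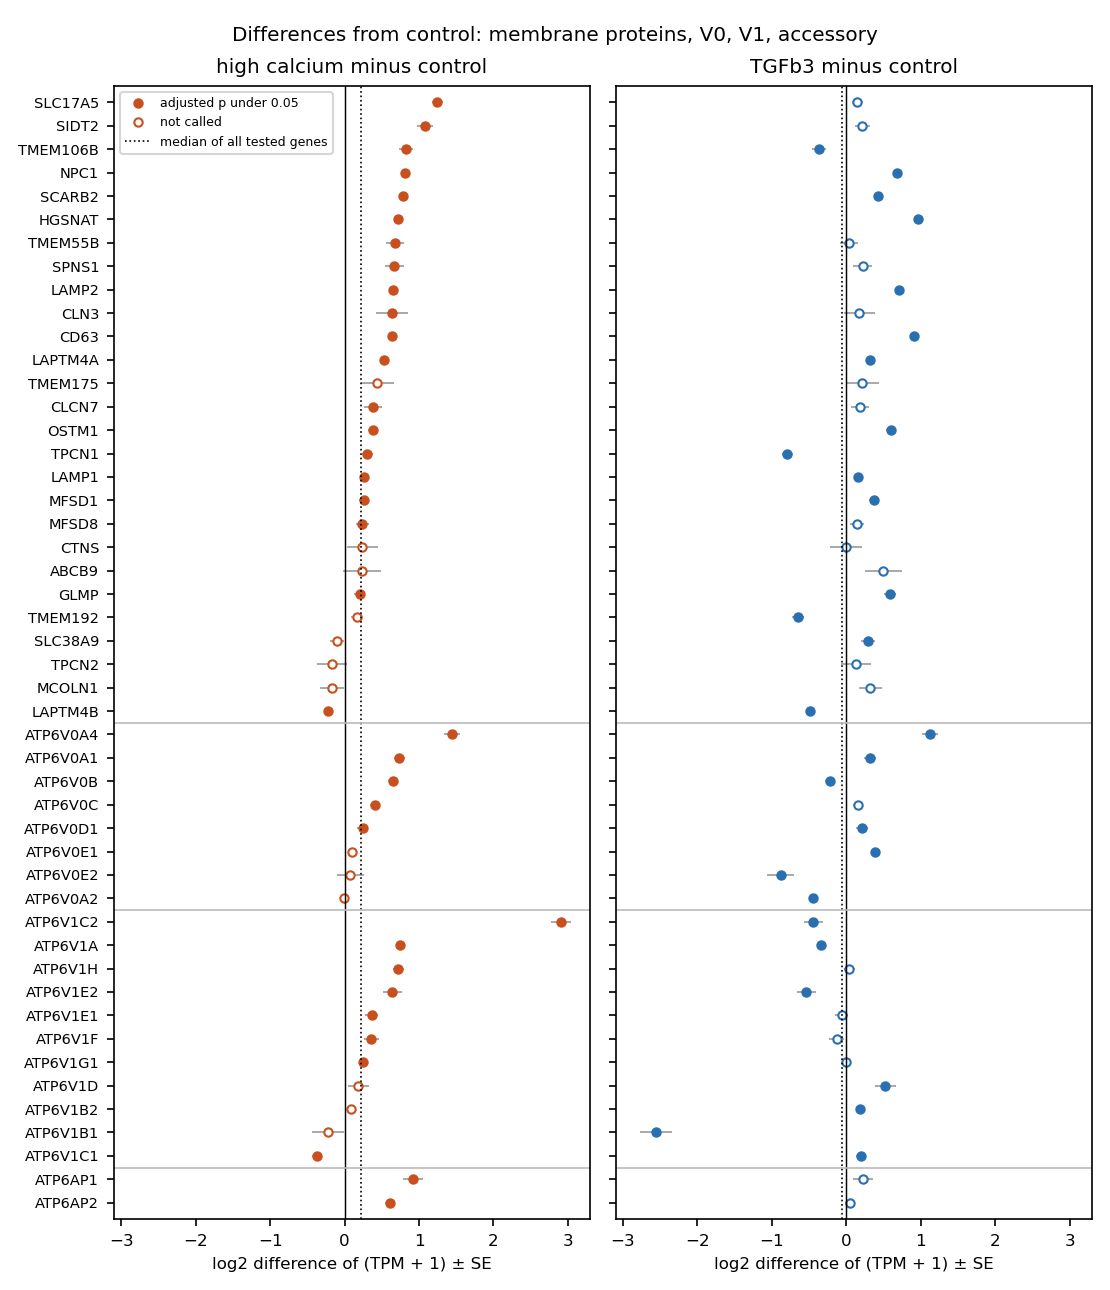
Log2 differences of (TPM + 1) from the controls with their SE for the 48 tested genes in high calcium (left) and TGFb3 (right), ordered within each class by the high calcium difference, with filled points for genes called at an adjusted p under 0.05 and a dotted line at the median of all tested genes (0.22 and -0.06). Most points of the left panel lie to the right of 0, and those of the right panel lie on both sides.

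The treatments were also compared directly. These differences use no control values, but their SE and adjusted p come from the fit of all 9 samples. Of the 48 genes, 27 were higher and 8 lower in high calcium than in TGFb3, where 50.4% of all tested genes were higher and 16.2% lower, so the share of higher genes was near that of the background. The median was 0.26 for the 48 genes and 0.27 for all genes. After rescaling 16 were higher and 16 lower, where 30% of all genes were higher and 30.3% lower. By class 11 membrane proteins were higher and 6 lower (6 and 11 after rescaling), 6 V0 subunits were higher and 1 lower (3 and 2), and 8 V1 subunits were higher and 1 lower (5 and 3). All 16 of the higher genes after rescaling were also called as deposited. The 9 of them with the largest differences as deposited began with 3.35 ± 0.13 (3.08 relative, adjusted p = 1.7e-08) for ATP6V1C2, whose exons overlap PDIA6 as given above, and 2.33 ± 0.21 (2.06 relative, adjusted p = 6.6e-06) for ATP6V1B1. Next were 1.18 ± 0.093 (0.92 relative, adjusted p = 2.2e-06) for TMEM106B, 1.18 ± 0.13 (0.91 relative, adjusted p = 1.9e-05) for ATP6V1E2, 1.10 ± 0.075 (0.83 relative, adjusted p = 8e-07) for TPCN1 and 1.10 ± 0.073 (0.83 relative, adjusted p = 6.5e-07) for SLC17A5. ATP6V1A differed by 1.09 ± 0.060 (0.82 relative, adjusted p = 1.7e-07), ATP6V0E2 by 0.96 ± 0.18 (0.69 relative, adjusted p = 0.0009) and ATP6V0B by 0.87 ± 0.064 (0.60 relative, adjusted p = 1.4e-06). The other 7, SIDT2, TMEM192, ATP6AP1, ATP6V1H, TMEM55B, ATP6AP2 and ATP6V0A2, differed by 0.86 down to 0.44. Lower in high calcium than in TGFb3 were CD63, with -0.27 ± 0.037 (-0.54 relative, adjusted p = 0.00012), and HGSNAT, with -0.24 ± 0.050 (-0.51 relative, adjusted p = 0.0015). The difference was -0.39 ± 0.080 (-0.66 relative, adjusted p = 0.0016) for GLMP, -0.22 ± 0.063 (-0.48 relative, adjusted p = 0.012) for OSTM1 and -0.39 ± 0.093 (-0.66 relative, adjusted p = 0.0038) for SLC38A9. It was -0.29 ± 0.060 (-0.55 relative, adjusted p = 0.0019) for ATP6V0E1 and -0.56 ± 0.067 (-0.83 relative, adjusted p = 4.4e-05) for ATP6V1C1. MCOLN1 was lower as well (-0.49 ± 0.16, -0.76 relative, adjusted p = 0.019), but not without high calcium sample 2 (adjusted p = 0.067) or TGFb3 sample 1 (adjusted p = 0.067). Among the 11 higher calls that did not hold after rescaling were those of NPC1, with 0.13 ± 0.043 (-0.14 relative, adjusted p = 0.021), and ATP6V0A4, with 0.31 ± 0.11 (0.05 relative, adjusted p = 0.025), and NPC1 was then called lower (-0.16, adjusted p = 0.0076). The others lost were those of SCARB2 (0.08, adjusted p = 0.07), LAPTM4A, LAPTM4B, SPNS1, ATP6V0A1, ATP6V0C, ATP6V1E1, ATP6V1F and ATP6V1G1. Besides NPC1, genes called lower only after rescaling were LAMP2 (-0.35, adjusted p = 1.8e-05), LAMP1, MFSD1, TPCN2, ATP6V0D1, ATP6V1B2 and ATP6V1D. The call of NPC1 as deposited was also lost without high calcium sample 2 (adjusted p = 0.072), high calcium sample 3 (adjusted p = 0.065), TGFb3 sample 1 (adjusted p = 0.062) or TGFb3 sample 2 (adjusted p = 0.052). That of ATP6V0A4 was also lost without high calcium sample 2 (adjusted p = 0.075), high calcium sample 3 (adjusted p = 0.065), TGFb3 sample 1 (adjusted p = 0.065) or TGFb3 sample 3 (adjusted p = 0.066).

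The genes with CACGTG in their promoter, shown above, were set beside those without it, as a description. In high calcium the 12 with the motif had a median difference of 0.26 (range -0.17 to 0.67), and 9 were called higher, 3 of them (CD63, SPNS1 and ATP6V0B) also after rescaling. The 26 tested genes with a promoter entry and no motif had a median of 0.39 (range -0.23 to 2.91), and 18 were called higher, or 12 after rescaling. Of all tested genes 46.1% were higher, or 30.2% after rescaling. In TGFb3 the medians were 0.20 and 0.15. MCOLN1 and ATP6V1G1, which held the longest palindrome, were respectively not called and called higher in high calcium, the latter not after rescaling, and LAMP1, with 6 copies, had one of the smaller called differences. What the motif has to do with the differences was not tested, and genes without a promoter entry are not covered.

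Other genes of the pump and the lysosomal membrane were followed from lists, whose counts are to be read against the shares of all tested genes. Those shares were 46.1% higher and 17% lower in high calcium, 30.2% and 30% there after rescaling, and 26.5% and 33.1% in TGFb3. Of 11 tested V-ATPase assembly and regulatory genes, 7 were higher and 0 lower in high calcium (median 0.49), 5 and 2 after rescaling (median 0.28), and 4 higher and 2 lower in TGFb3 (median 0.09). CCDC115, an assembly factor of V0, went from 11.6 ± 0.946 TPM in the controls to 22.8 ± 0.583 TPM in high calcium, a difference of 0.92 ± 0.11 (0.70 relative, adjusted p = 3.6e-05). NCOA7, a TLDc-domain protein that binds V-ATPase, fell from 129.7 ± 3.43 TPM in the controls to 52.0 ± 2.33 TPM in TGFb3, a difference of -1.30 ± 0.042 (adjusted p = 7.1e-09). It went from 52.0 ± 2.33 TPM in TGFb3 to 126 ± 0.276 TPM in high calcium, a difference of 1.26 ± 0.042 (0.99 relative, adjusted p = 5.7e-09). TLDC1, of the same domain family, was higher in both treatments, from 22.3 ± 2.62 TPM in the controls to 41.7 ± 1.63 TPM in high calcium, a difference of 0.88 ± 0.077 (0.66 relative, adjusted p = 4.8e-06) and from 22.3 ± 2.62 TPM in the controls to 40.1 ± 1.11 TPM in TGFb3, a difference of 0.82 ± 0.077 (adjusted p = 8.1e-06).

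Of 24 tested carriers and channels outside the 50 genes, 15 were higher and 2 lower in high calcium (median 0.50), 13 and 2 after rescaling (median 0.28), and 12 higher and 5 lower in TGFb3 (median 0.25). P2RX4, an ATP-gated cation channel found in lysosomes, went from 4.70 ± 0.475 TPM in the controls to 28.7 ± 1.84 TPM in high calcium, a difference of 2.38 ± 0.097 (2.16 relative, adjusted p = 2.5e-08). ABCA5, a lipid transporter of the ABC family, went from 9.96 ± 1.83 TPM in the controls to 36.8 ± 1.34 TPM in high calcium, a difference of 1.80 ± 0.11 (1.57 relative, adjusted p = 3.1e-07). SLC46A3, a lysosomal carrier, went from 5.49 ± 0.565 TPM in the controls to 67.0 ± 4.15 TPM in TGFb3, a difference of 3.39 ± 0.12 (adjusted p = 1.2e-08), the largest rise of these lists in TGFb3. SLC48A1, which carries haem, fell from 14.7 ± 2.02 TPM in the controls to 4.80 ± 1.93 TPM in TGFb3, a difference of -1.48 ± 0.19 (adjusted p = 9.3e-05). Of 22 tested other membrane proteins of lysosomes and late endosomes, 18 were higher and 2 lower in high calcium (median 0.50), 12 and 3 after rescaling (median 0.26), and 15 higher and 3 lower in TGFb3 (median 0.27). LAMP3, a relative of LAMP1 and LAMP2, went from 5.60 ± 0.358 TPM in the controls to 17.2 ± 0.935 TPM in high calcium, a difference of 1.47 ± 0.090 (1.24 relative, adjusted p = 4e-07). PLD3, a lysosomal exonuclease, went from 30.1 ± 2.88 TPM in the controls to 95.1 ± 2.31 TPM in high calcium, a difference of 1.63 ± 0.081 (1.41 relative, adjusted p = 9.7e-08). CD68, a relative of the LAMP proteins best known from macrophages, went from 2.04 ± 0.858 TPM in the controls to 24.8 ± 11.8 TPM in high calcium, a difference of 3.02 ± 0.32 (2.79 relative, adjusted p = 2.1e-05). It went from 2.04 ± 0.858 TPM in the controls to 11.0 ± 2.56 TPM in TGFb3, a difference of 2.00 ± 0.32 (adjusted p = 0.00038). Of the 9 markers of macrophages and osteoclasts, PTPRC, DCSTAMP, OCSTAMP and CALCR were at 0 in every sample. CSF1R was called higher in both treatments, with 0.525 to 0.894 TPM in the control samples, 3.82 to 4.39 TPM in high calcium and 7.49 to 9.12 TPM in TGFb3. CD14 was called higher in high calcium and lower in TGFb3, with 18.1 to 21.4, 32.3 to 39.1 and 1.99 to 3.26 TPM in the same order, and CTSK was called higher in TGFb3 alone. Their part in the difference of CD68 was not tested.

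Of 20 Ragulator, BORC and positioning genes, which anchor mTORC1 signalling to lysosomes and move them along microtubules, 13 were higher and 1 lower in high calcium (median 0.35), 8 and 5 after rescaling (median 0.12), and 7 higher and 4 lower in TGFb3 (median 0.08). BLOC1S2, a BORC subunit, went from 64.8 ± 2.69 TPM in the controls to 164 ± 16.0 TPM in TGFb3, a difference of 1.32 ± 0.069 (adjusted p = 1.5e-07). Of the 8 HOPS and CORVET genes, whose products tether lysosomes before fusion, 4 were higher and 1 lower in high calcium (median 0.31), 3 and 2 after rescaling (median 0.08), and 2 higher and 1 lower in TGFb3 (median 0.12), so that the shares of higher genes were near those of all genes. TGFBRAP1, a CORVET subunit also known to bind TGF-beta receptors, was the 1 that fell in each, from 26.0 ± 2.92 TPM in the controls to 15.5 ± 0.441 TPM in high calcium, a difference of -0.71 ± 0.080 (-0.93 relative, adjusted p = 3.1e-05) and from 26.0 ± 2.92 TPM in the controls to 12.0 ± 0.315 TPM in TGFb3, a difference of -1.05 ± 0.080 (adjusted p = 1.8e-06). VPS39, its counterpart in HOPS, went from 23.7 ± 1.04 TPM in the controls to 36.1 ± 1.60 TPM in high calcium, a difference of 0.59 ± 0.059 (0.37 relative, adjusted p = 1.2e-05).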

How the data were processed

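RNA of 9 MCF10A samples was measured as paired-end RNA-seq. The authors deposited 1 table of TPM values for 58288 annotated genes. HISAT2 and the build hg38 are named in the submitters' processing notes. For the HISAT2 version, the quantifier, the annotation, strandedness and depth the answer is not given in the sources used here. As TPM always adds up to the same total, a shift in abundant RNA moves all other values.

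Rows sharing a symbol (1932 rows, 253 symbols) were summed. Values were tested as log2(TPM + 1), which understates changes of low genes, for 13968 symbols averaging 1 TPM or more, with limma 3.58.1 in R 4.3.3 (trended variance, all 9 samples, group as the only term, two-sided, Benjamini-Hochberg). A gene was called at an adjusted p under 0.05. Isoform shares were compared with an exact permutation test (scipy 1.17.1). Python 3.11.15, pandas 2.3.3 and matplotlib 3.10.9 made the tables and figures. The fit was tested on simulated data. Coordinates and overlaps of genes come from GENCODE 29 (hg38), which matched all 50 genes, of which 29 share exon bases with another gene; promoter sequences come from RefSeq (GRCh38.p14). Adjusted p-values given without a tool are limma's.

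The 50 genes and all lists were chosen with earlier results of these data known. By rule, any of the 50 genes and any isoform of their families could be named, and from each other list up to 3 called genes per comparison with the largest difference and 10 TPM or more in the group where it was higher. The alternatives were median ratio rescaling (over symbols above 0 in every sample), quantile normalisation, mitochondrial genes left out, a pseudocount of 0.1, no filter, a minimum of 5 TPM, only the 2 groups compared, a replicate block, and each sample left out.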

Additional observations from a re-analysis of the deposited data

How the results depend on the processing

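The scale set the high calcium counts. Against the controls, genes called higher were 6438 as deposited, 4210 after median ratio rescaling and 3991 after quantile normalisation, and genes lower 2378, then 4182, 4464 and, without mitochondrial genes, 3791. Of the membrane proteins 11, 11 and 12 were higher in these 3 settings (19 as deposited) and 2, 4 and 2 lower (1), and of all 50 genes 21 were higher after either rescaling (33) and 5, 7 and 5 lower (2). Against TGFb3, genes higher were 4183 and 4364 after the rescalings (7038) and lower 4226, 4181 and, without mitochondrial genes, 3468 (2256). There, in the same 3 settings, membrane proteins higher were 6, 7 and 7 (11) and lower 11, 10 and 8 (6). Of the 50 genes 16, 20 and 20 were higher (27) and 16, 15 and 12 lower (8). For TGFb3 against control, no alternative moved a count of the 50 genes, of their classes or of all tested genes by more than 1.5 times. Among differences called as deposited or under the alternative, signs turned, against the controls, for MFSD8 (-0.022, quantile), GLMP (-0.021 and -0.089, both rescalings) and ATP6V1B2 (-0.15 rescaled, -0.11 without mitochondrial genes). Against TGFb3 they turned after median ratio rescaling for LAMP1 (-0.18, quantile -0.11), NPC1 (-0.16, quantile -0.10, without mitochondrial genes -0.065), LAPTM4A (-0.075), LAPTM4B (-0.025), ATP6V0C (-0.037), ATP6V0D1 (-0.25, quantile -0.22) and ATP6V1G1 (-0.028). Median ratio rescaling also turned uncalled differences, 4 against the controls (TMEM192, ATP6V0E1, ATP6V0E2 and ATP6V1D in high calcium), 2 in TGFb3 (CTNS and ATP6V1G1) and 2 between the treatments (CLCN7 and MFSD8). After quantile normalisation MCOLN1 (-0.57), TPCN2 (-0.54) and ATP6V1B1 (-0.59) were called lower in high calcium. With no filter on low values, CLN3, MFSD8 and GLMP in high calcium and ATP6V0D1 and ATP6V1C1 in TGFb3 were not called (adjusted p 0.066 to 0.069). Rescaling divides out the median shift by construction; other causes were not tested. Same-numbered samples did not deviate together (r across genes -0.0747 to -0.0037 over 9 pairs, against -0.0345 to 0.0896 over 18 pairs of different numbers). The labels do not say what the numbers stand for, and these r cannot settle it. With a replicate block, 32 of the 50 genes were higher and 2 lower in high calcium and 18 and 11 in TGFb3. Leaving out each sample gave 28 to 32 of the 50 genes higher in high calcium and 15 to 23 in TGFb3. Of all tested genes it gave 5898 to 6463 and 3362 to 3750.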
